A study of Mus musculus with 6 samples.

Results

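The organic anion and cation transporter genes studied here are the protein-coding genes of the Slc22a, Slco, Slc47a and Abcc families, taken by gene symbol, with Slco1a1 left out. The count table held 50 of them among 54909 rows. They were compared in kidneys of mice labelled Lpar3-/-, said to be deficient in lysophosphatidic acid receptor 3, and of mice labelled WT, with 3 libraries in each group. All of these mice had breathed 8% oxygen at normal pressure for 12 h, so both groups were hypoxic and no value here shows a response to hypoxia. The sources used here give no strain, sex, age or way the Lpar3 allele was made, and do not say whether each library came from a separate animal, so p-values measure only the spread between these libraries, which may in part be technical.

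Cells of the proximal tubule clear drugs, toxins and metabolites from the blood by carrying them across in steps. Organic anion transporters of the basolateral membrane take up anions in exchange for dicarboxylates, and organic cation transporters take up cations along the membrane potential. Apical exchangers and ATP-driven pumps of the Abcc family then release them into the urine, while other apical carriers, such as the urate exchanger encoded by Slc22a12, return useful solutes to the cell. The organic anion transporting polypeptides encoded by the Slco genes carry bile acids, steroid conjugates, prostaglandins and thyroid hormones.

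The libraries labelled Lpar3-/- held 16032392 to 17789664 counts and the WT libraries 16011804 to 17991881. The transporter genes took 0.547% to 0.576% of the counts in named genes in the libraries labelled Lpar3-/- and 0.554% to 0.631% in WT. Lpar3 itself had 672, 592 and 580 counts in the libraries labelled Lpar3-/- and 645, 634 and 577 in WT, so counts over the whole gene did not tell the genotypes apart, and group membership is taken from the labels alone. Proximal tubule markers were abundant in every library. The summed level of 6 of them (Lrp2, Cubn, Slc34a1, Hnf4a, Aqp1 and Ggt1) was 7433 to 7971 CPM (counts scaled to the library total) in the libraries labelled Lpar3-/- and 7144 to 7650 CPM in WT. WT replicate 2 stood apart in markers of other cells, with 507 CPM for 8 macrophage genes and 179 CPM for 6 tubular injury genes, where the libraries labelled Lpar3-/- had 217 to 255 CPM for the macrophage genes and 73.3 to 82.9 CPM for the injury genes, and the other WT libraries 250.1 to 264 CPM and 85.3 to 95.7 CPM. The summed level of 7 adipose genes was 19.9 to 55.1 CPM in the libraries labelled Lpar3-/- and 63.9 to 140.1 CPM in WT. The sums of the 6 tubular injury genes (Havcr1, Lcn2, Krt20, Vcam1, Sox4 and Vim) and of the adipose genes did not overlap between groups. Of the single genes, Havcr1, Vcam1, Lep, Retn and the untested Ucp1 did overlap. Lcn2, Krt20, Sox4, Vim, Adipoq, Plin1, Cidec and Cfd were lower in the libraries labelled Lpar3-/- without overlap. Sums without overlap were also those of Umod and Slc12a1 of the thick ascending limb, at 3933 to 4169 CPM in the libraries labelled Lpar3-/- and 3220 to 3602 CPM in WT. Those of 4 collecting duct genes were 693 to 801 CPM in the libraries labelled Lpar3-/- and 647 to 678 CPM in WT, again without overlap. Each of these 4 genes (Aqp2, Aqp3, Atp6v1g3 and Slc4a1) did overlap by itself, and Aqp2 made up most of the sum. Of the 58 marker genes edgeR called 0, DESeq2 called 5 (higher in the libraries labelled Lpar3-/- for Slc12a1, Slc5a12 and Aqp1, lower for Plin1 and Retn) and limma-voom called Slc12a1 alone. Over all genes, DESeq2 called 176 and limma-voom 55. Among markers of proximal segments 1 and 2, Slc5a12 and Slc6a19 were higher and Slc5a2 lower, each without overlap, while Slc4a4 and Slc7a7 overlapped. The sum of these genes overlapped, at 4062 to 4224 CPM in the libraries labelled Lpar3-/- and 3581 to 4314 CPM in WT. Of the proximal tubule markers named above, Aqp1 was higher and Ggt1 lower without overlap, and the others overlapped. Of the muscle genes, 1 of 3 was at 0 in each library, and the part of these cell types in the results below was not tested. In whole kidney, fewer cells of a type and less RNA per cell cannot be told apart.

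No transporter gene passed the test. Between genotypes, 37 of the 50 genes had enough counts to be tested, and edgeR's quasi-likelihood test with Benjamini-Hochberg adjustment over all 15225 genes called 0 of them at an adjusted p below 0.05, where it called 0.374% of all genes. DESeq2 and limma-voom each called 0 as well. At an unadjusted p below 0.05 there were 6 (16.2%), namely Slc22a7, Slco4c1, Slc22a30, Slc22a29, Slc22a28 and Slc22a6, against 9.18% of all genes. By direction, 2 had higher values in the libraries labelled Lpar3-/- (background 3.97%) and 4 had lower values (background 5.21%). All but Slco4c1 encode organic anion carriers of the Slc22a family, and 4 of these (Slc22a30, Slc22a29, Slc22a28 and Slc22a6) lie on chromosome 19, as do 8 of the 11 tested genes of that role group. The median log2 fold change, Lpar3-/- over WT, of the 37 genes was 0.03, against -0.0036 for all genes tested. The fold changes of 28 genes (75.7%) lay within 0.25 of 0 on the log2 scale, against 78.6% of all genes. In 6 genes (16.2%) the groups did not overlap in CPM, against 13.7% of all genes. Values were higher in the libraries labelled Lpar3-/- in 5 of them (background 6.58%) and lower in 1 (background 7.12%).

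**Figure D1:**
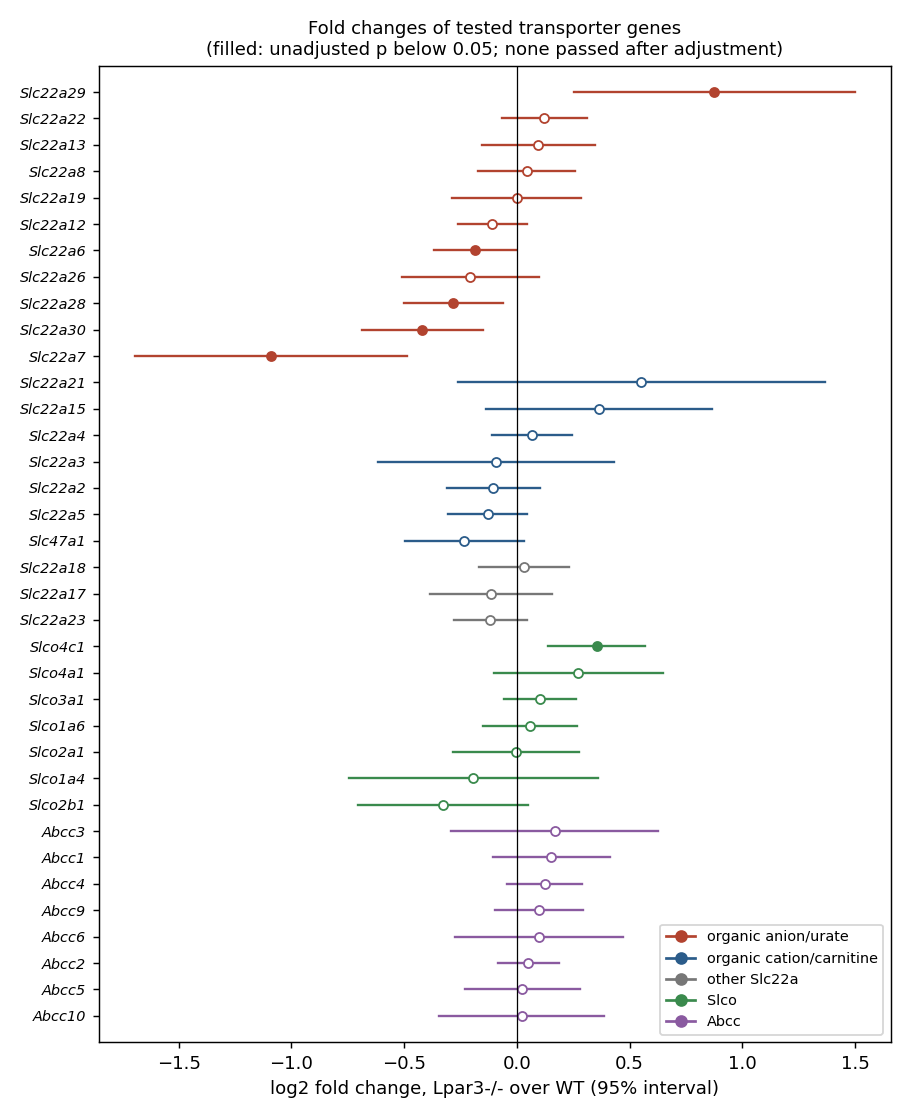
Log2 fold change, Lpar3-/- over WT, of 36 tested transporter genes on the horizontal axis, with 95% intervals as lines, grouped by role and coloured by role group. Filled points mark the 6 genes with an unadjusted p below 0.05, Slc22a29 and Slco4c1 to the right of 0 and Slc22a7, Slc22a30, Slc22a28 and Slc22a6 to the left, and all 8 Abcc genes lie to the right of 0 with intervals that include it.

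A set of these genes on chromosome 19 are close copies of one another, so their sequences are given first. Slc22a28, Slc22a29 and Slc22a30, rodent members of the organic anion transporter family, lie in this order on the minus strand (GRCm38 chr19:8062209-8131982, chr19:8160165-8218900 and chr19:8335371-8405111). The coding sequences of Slc22a28 and Slc22a30 are both 1656 bases long and differ at 20 positions (98.8% identity), and their first 431 coding bases are the same. Slc22a29 is 92.4% identical to Slc22a30 over the coding sequence. The first 120 coding bases from GENCODE vM21 are shown to make this visible, with capitals at the bases of a gene that differ from Slc22a30, of which Slc22a28 has 0 and Slc22a29 has 17.
Slc22a30: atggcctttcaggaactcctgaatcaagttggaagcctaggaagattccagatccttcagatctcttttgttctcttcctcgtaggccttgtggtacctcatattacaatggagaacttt
Slc22a28: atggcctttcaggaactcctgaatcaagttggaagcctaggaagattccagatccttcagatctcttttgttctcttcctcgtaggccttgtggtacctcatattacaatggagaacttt
Slc22a29: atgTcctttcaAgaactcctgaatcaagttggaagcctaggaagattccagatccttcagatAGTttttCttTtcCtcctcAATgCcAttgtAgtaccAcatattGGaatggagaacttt

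The sequence before the start site follows the same order of likeness. In the RefSeq promoter table (GRCm38.p6), 40 of the 50 genes were found, 29 of them among the 37 tested. The 250 bases before the start given there for Slc22a30 (chr19:8405106-8405355, minus strand), Slc22a28 (chr19:8131983-8132232) and Slc22a29 (chr19:8218901-8219150) are shown because these neighbours had fold changes of opposite sign. None of these fold changes passed the test, and a link between the sequences and the levels was not tested. The near end of the Slc22a30 window lies just inside the gene coordinates given above. Capitals mark bases that were unlike Slc22a30, or had no partner there, in a global alignment.
Slc22a30: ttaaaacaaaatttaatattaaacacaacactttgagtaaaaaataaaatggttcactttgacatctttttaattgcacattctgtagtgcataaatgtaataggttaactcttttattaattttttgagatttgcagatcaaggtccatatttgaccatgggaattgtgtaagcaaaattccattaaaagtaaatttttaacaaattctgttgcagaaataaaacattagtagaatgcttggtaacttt
Slc22a28: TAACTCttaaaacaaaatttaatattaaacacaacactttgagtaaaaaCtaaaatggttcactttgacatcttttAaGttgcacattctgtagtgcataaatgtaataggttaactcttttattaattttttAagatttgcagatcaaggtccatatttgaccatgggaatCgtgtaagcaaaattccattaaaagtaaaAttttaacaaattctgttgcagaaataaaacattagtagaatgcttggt
Slc22a29: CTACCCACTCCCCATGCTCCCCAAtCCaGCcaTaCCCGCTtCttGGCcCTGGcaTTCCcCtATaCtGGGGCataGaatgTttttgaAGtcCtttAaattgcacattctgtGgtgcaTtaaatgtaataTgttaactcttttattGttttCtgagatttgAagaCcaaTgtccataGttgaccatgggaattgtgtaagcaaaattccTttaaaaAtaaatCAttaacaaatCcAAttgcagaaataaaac

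Over the aligned bases, Slc22a28 was 97.5% and Slc22a29 77.8% identical to Slc22a30 before the start. Slc22a28 had 12 bases in capitals, which include its leading bases, beyond the end of the Slc22a30 window. Slc22a29 had 78, of which 64 lay in the 125 bases farther from the start and 14 in the 125 bases nearer to it.

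Among the 13 genes of organic anion and urate exchangers, 11 were tested and 5 (45.5%) had an unadjusted p below 0.05, against 9.18% of all genes, 1 with higher and 4 with lower values in the libraries labelled Lpar3-/-. Their levels are compared between genes in FPKM (fragments scaled to gene length and to 1 factor per library), the authors' deposited values, and between libraries of a gene in CPM. The most abundant was Slc22a12, the apical urate exchanger known as URAT1 (ENSMUSG00000061742, chr19:6535845-6543019). At 467 FPKM over the 6 libraries it made up 48.2% of the summed FPKM of its role group and stood above every other transporter gene studied here in every library. Slc22a12 had 1065, 1015 and 973 CPM in the libraries labelled Lpar3-/- and 1071, 1117 and 1106 CPM in WT. In CPM the groups did not overlap, but the highest library labelled Lpar3-/- and the lowest WT library lay close together. In FPKM they did overlap, at 471.65 in Lpar3-/- replicate 1 and 471.57 in WT replicate 1. The log2 fold change of -0.11 had a 95% interval of -0.26 to 0.04 (edgeR adjusted p = 0.715). An exon of Slc22a12 overlaps one of Nrxn2 on the other strand. On either strand, 29.1% of the 50-base stretches of the Slc22a12 transcript also occur in transcripts of other genes, most often Nrxn2.

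Slc22a6 and Slc22a8 encode OAT1 and OAT3, the main basolateral carriers for organic anions, and lie side by side on chromosome 19. Slc22a6 (ENSMUSG00000024650, chr19:8617996-8628299) had 1004, 945 and 885 CPM in the libraries labelled Lpar3-/- and 979, 1104 and 1140 CPM in WT. WT replicates 2 and 3 were above all libraries labelled Lpar3-/-, and WT replicate 1 was among them. This gave a log2 fold change of -0.19 (SE 0.08, interval at 95% from -0.37 to -0.01, unadjusted p = 0.0443, edgeR adjusted p = 0.529). Slc22a8, at 90.6 FPKM over all libraries against 249 FPKM for Slc22a6, had 333, 307 and 328 CPM in the libraries labelled Lpar3-/- and 356, 318 and 265 CPM in WT. Its WT libraries lay on both sides of the other group, and the log2 fold change was 0.04 (95% interval -0.17 to 0.26, edgeR adjusted p = 0.945). The sign of that value turned without WT replicate 3 (-0.06, edgeR adjusted p = 0.886).

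Slc22a7, which encodes OAT2, had the lowest p of the transporter genes and a wide spread among WT libraries. This carrier of small anions such as nucleotides and dicarboxylates is found in the last segment of the mouse proximal tubule. Slc22a7 (ENSMUSG00000067144, chr17:46432183-46438457) had 54.8, 47.9 and 37.9 CPM in the libraries labelled Lpar3-/- and 50.9, 143 and 106 CPM in WT. WT replicates 2 and 3 were far above every other library, while WT replicate 1 lay between the lowest and highest library of the other group. The mean was 46.9 ± 8.49 CPM in the libraries labelled Lpar3-/- and 99.9 ± 46.5 CPM in WT (SD, n = 3 each), a log2 fold change of -1.09 (SE 0.28, 95% interval -1.69 to -0.49) with an unadjusted p of 0.00199 and an edgeR adjusted p of 0.158. Without WT replicate 1 it was -1.41 (edgeR adjusted p = 0.00173), and in the other 5 fits with a library left out the adjusted p was 0.28 to 0.604, with the smallest value, -0.74, without WT replicate 2.

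The summed level of 5 markers of the last proximal segment (Slc7a13, Slc5a1, Slc5a10, Atp11a and Slc27a2), given here because Slc22a7 belongs to that segment, was 4721 to 4922 CPM in the libraries labelled Lpar3-/- and 4243, 5158 and 4876 CPM in WT replicates 1 to 3. In this sum WT replicate 1 was lowest and WT replicate 2 highest of the 6 libraries, and Slc27a2 made up most of it. Slc7a13 had 269, 280 and 257 CPM in the libraries labelled Lpar3-/- and 220, 348 and 353 CPM in WT. Atp11a had 946.4, 945.9 and 867 CPM in the libraries labelled Lpar3-/- and 722, 1120 and 1261 CPM in WT. In both genes, as in Slc22a7, WT replicates 2 and 3 were above every other library, and here WT replicate 1 was the lowest of the 6. Slc27a2, Slc5a1 and Slc5a10 did not have this order. Their log2 fold changes were 0.09, 0.10 and 0.05, against -0.19 for Slc7a13 and -0.17 for Atp11a. None of the 5 markers was called by edgeR, DESeq2 or limma-voom, and their part in the level of Slc22a7 was not tested.

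In Slc22a30 and Slc22a28, as in Slc22a6, WT replicates 2 and 3 were above every library labelled Lpar3-/-. Slc22a30 (ENSMUSG00000052562) had 76.8, 83.8 and 70.1 CPM in the libraries labelled Lpar3-/- and 80.6, 110 and 118 CPM in WT. This gave a log2 fold change of -0.42 (SE 0.12, interval at 95% from -0.69 to -0.15, unadjusted p = 0.00521, edgeR adjusted p = 0.259). Again WT replicate 1 was among the libraries labelled Lpar3-/-, and without it the log2 fold change was -0.57 (edgeR adjusted p = 0.0107), while it was -0.49 to -0.31 (adjusted p 0.366 to 0.742) without any other library. Slc22a28 (ENSMUSG00000063590) had 48.1, 54.1 and 45.6 CPM in the libraries labelled Lpar3-/- and 51.4, 66.9 and 61.3 CPM in WT, a log2 fold change of -0.28 (SE 0.10, unadjusted p = 0.0169, edgeR adjusted p = 0.381). Of the 50-base stretches of the Slc22a28 transcript, 53.9% also occur in transcripts of another gene, most often Slc22a30. Of those of Slc22a30, 36.2% occur in transcripts of other genes, Slc22a28 and Slc22a29 among them. How reads that match several genes were counted is not known here, so the split of counts among these genes is uncertain. Summed over Slc22a28 and Slc22a30, the level was 124.8, 138 and 116 CPM in the libraries labelled Lpar3-/- and 132, 177 and 179.6 CPM in WT.

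Slc22a29, which lies between them, had the opposite sign at a low level. It had 53, 32 and 47 counts in the libraries labelled Lpar3-/- and 25, 25 and 22 in WT, which is 3.02, 2.02 and 2.72 CPM in the libraries labelled Lpar3-/- and 1.41, 1.48 and 1.33 CPM in WT. All 3 libraries labelled Lpar3-/- were above all 3 WT libraries. Its log2 fold change of 0.88 (SE 0.28, interval at 95% from 0.254 to 1.498, unadjusted p = 0.0098, edgeR adjusted p = 0.324) stayed between 0.75 and 1.02 with any library left out. This gene shares 30.5% of its 50-base stretches with other transcripts, most often those of Slc22a27, whose coding sequence is 97.3% identical. Slc22a27 had 2 to 10 counts in each library and was not tested. The split of counts between these genes is uncertain for the same reason.

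The other tested organic anion carriers had intervals that included 0. Slc22a13, which encodes OAT10, a carrier of urate and nicotinate, averaged 52.1 ± 2.74 CPM in the libraries labelled Lpar3-/- and 48.8 ± 8.97 CPM in WT. Slc22a22, which encodes a prostaglandin carrier of the mouse kidney, averaged 54.5 ± 1.73 CPM in the libraries labelled Lpar3-/- and 50.1 ± 5.57 CPM in WT. Slc22a19, which encodes OAT5, an apical carrier of sulfated steroids, averaged 89.5 ± 1.90 CPM in the libraries labelled Lpar3-/- and 89.6 ± 21.3 CPM in WT (SD, n = 3 each). Its WT values of 69.2, 112 and 87.8 CPM enclosed all values of the other group. Slc22a26, another rodent carrier of the same row of genes, had a log2 fold change of -0.21 (95% interval -0.51 to 0.10). Slc22a20 had 0 counts in each library.

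**Figure D2:**
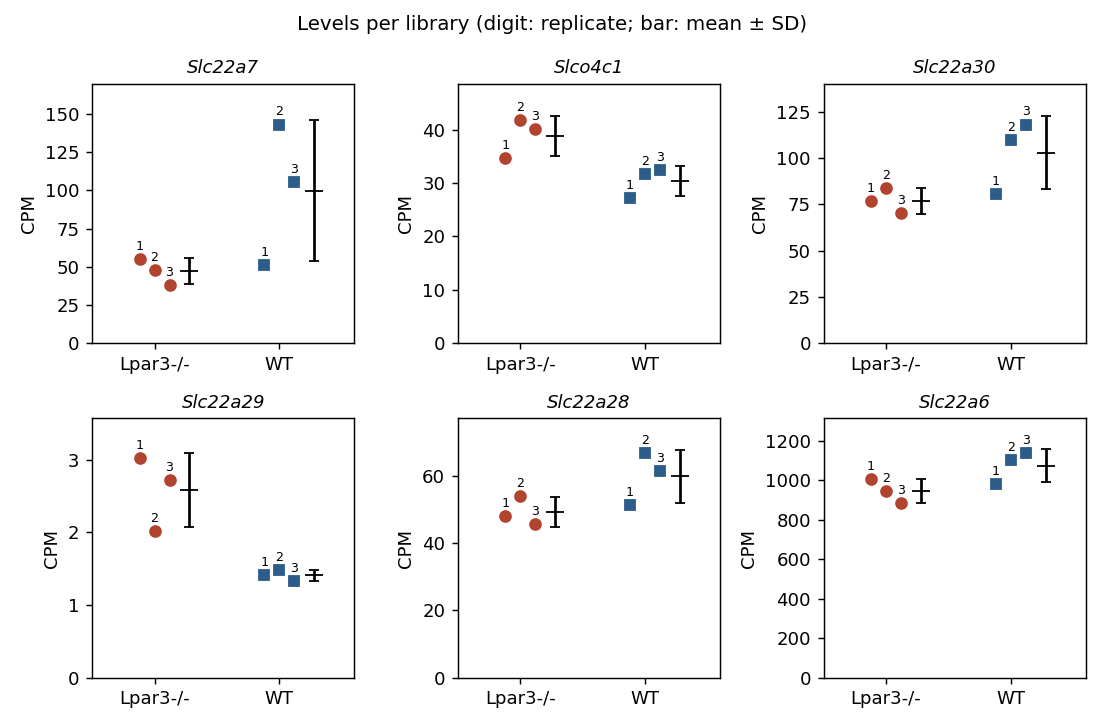
CPM in each library of the 6 transporter genes with an unadjusted p below 0.05, with libraries labelled Lpar3-/- as circles on the left and WT libraries as squares on the right, the replicate number above each point and the mean ± SD beside each group (n = 3). In Slc22a7, Slc22a30, Slc22a28 and Slc22a6, WT replicate 1 lies between libraries labelled Lpar3-/- while WT replicates 2 and 3 lie above all of them, whereas in Slco4c1 and Slc22a29 the groups do not overlap.

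Carriers of organic cations and carnitine were among the most abundant transporter genes and showed no difference between the groups that passed the test. Of 10 genes, 8 were tested, 4 with a positive and 4 with a negative log2 fold change, and 0 had an unadjusted p below 0.05 (edgeR; DESeq2 and limma-voom also called 0). Slc47a1, which encodes MATE1, the apical exchanger that passes cations into the urine against protons, had 497, 512 and 455 CPM in the libraries labelled Lpar3-/- and 477, 703 and 540 CPM in WT. Its WT replicate 2 was the highest of the 6, with a log2 fold change of -0.23 (SE 0.12, 95% interval -0.50 to 0.03, unadjusted p = 0.0787, edgeR adjusted p = 0.613), or -0.06 (adjusted p = 0.893) without that library.

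Slc22a5, which encodes OCTN2, the carrier that recovers carnitine from the filtrate, had a log2 fold change of -0.13 (95% interval -0.30 to 0.04), at 405 ± 36.2 CPM in the libraries labelled Lpar3-/- and 444 ± 16.4 CPM in WT. Slc22a2, which encodes OCT2, had 239 ± 26.8 CPM in the libraries labelled Lpar3-/- and 257 ± 22.8 CPM in WT. Slc22a4, which encodes the ergothioneine carrier OCTN1, had 53.5 ± 2.17 CPM in the libraries labelled Lpar3-/- and 51.0 ± 4.61 CPM in WT. Slc22a15 had 3.02, 3.21 and 3.99 CPM in the libraries labelled Lpar3-/- and 2.48, 2.54 and 2.90 CPM in WT, without overlap, but it rested on 53, 51 and 69 counts in the libraries labelled Lpar3-/- and 44, 43 and 48 in WT, and its log2 fold change of 0.37 had a 95% interval of -0.14 to 0.87 (edgeR adjusted p = 0.703). Slc22a3, which encodes OCT3, was also low, at 0.776 FPKM. Slc47a2 had 3 to 6 counts in each library and Slc22a16 had 0.

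Slc22a21, which encodes the carnitine carrier OCTN3 in mice, was high in 1 library only and is named after its values were seen. It had 189 counts (11.9 CPM) in replicate 2 of the libraries labelled Lpar3-/-, against 64 and 73 counts in the other two and 74, 73 and 81 in WT. Its neighbour Slc22a5 was lowest in that same library, at 372 CPM. The coding sequences of these genes are 90.5% identical, and 24.2% of the 50-base stretches of the Slc22a21 transcript are shared with other transcripts, most often those of Slc22a5. The log2 fold change of Slc22a21, 0.55, had a 95% interval of -0.26 to 1.37, the widest of the 37 genes.

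The remaining Slc22a genes have less settled or other roles. Slc22a18, an imprinted gene of a putative proton-linked carrier, was the most abundant of these 4 genes with 88.3% of their summed FPKM. It had 314, 311 and 341 CPM in the libraries labelled Lpar3-/- and 304, 360 and 282 CPM in WT, so the WT values enclosed the others, and the log2 fold change of 0.03 (95% interval -0.17 to 0.23, edgeR adjusted p = 0.957) turned negative without Lpar3-/- replicate 3 (-0.0085) or WT replicate 3 (-0.04). Slc22a23, whose substrate is not settled, had 103, 107 and 115 CPM in the libraries labelled Lpar3-/- and 126, 112 and 114 CPM in WT (log2 fold change -0.12, 95% interval -0.28 to 0.04). Slc22a17, which encodes a receptor for the iron-binding protein lipocalin 2, had 30.8 ± 4.64 CPM in the libraries labelled Lpar3-/- and 33.5 ± 4.84 CPM in WT (log2 fold change -0.12, edgeR adjusted p = 0.857), a value that was 0.0084 without WT replicate 3. Slc22a14 had 5 to 12 counts in each library and was not tested.

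**Figure D3:**
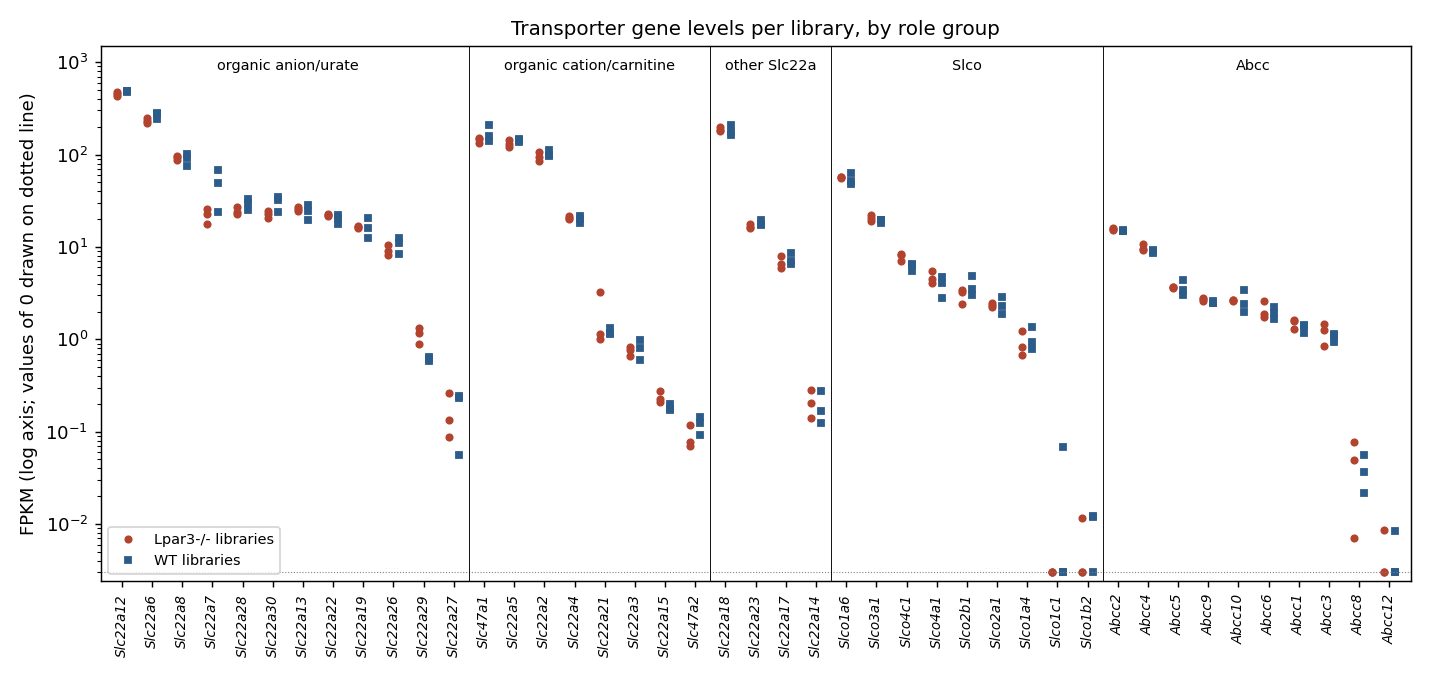
FPKM on a log axis of 43 transporter genes with counts, grouped by role and ordered by mean level, with libraries labelled Lpar3-/- as circles to the left and WT libraries as squares to the right of each position. Slc22a12 (467 FPKM) and Slc22a6 (249 FPKM) lead the anion carriers, Slc47a1 (156 FPKM) is among the highest cation carriers, and Slco1a6 (55.3 FPKM) leads the Slco genes and Abcc2 (15.3 FPKM) the Abcc genes.

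Across the 50 genes the levels spanned several orders of magnitude. By mean FPKM over the 6 libraries, 6 genes were at 100 or more, among them Slc22a12, Slc22a6, Slc22a18, Slc47a1 and Slc22a5, 13 were at 10 or more but under 100, 14 at 1 or more but under 10, 11 above 0 but under 1, and 6 at 0. In this order Slc22a12 stood clear of Slc22a6 in all libraries, Slc22a5 clear of Slc22a2, and Slc22a8 clear of Slco1a6, whereas the levels of Slc22a18, Slc47a1 and Slc22a5 overlapped from each one to the next. The summed FPKM of all 50 was 1957, 1874 and 1827 in the libraries labelled Lpar3-/- and 1873, 2163 and 1961 in WT. The mean was 1886 ± 65.7 in the libraries labelled Lpar3-/- and 1999 ± 149 in WT (SD, n = 3 each). Organic anion and urate exchangers gave 49.8% of this sum, organic cation and carnitine carriers 32.6%, the other Slc22a genes 10.9%, Slco carriers 4.80% and Abcc genes 1.96%. The anion exchangers alone summed to 919 ± 45.3 FPKM in the libraries labelled Lpar3-/- and 1016 ± 65.2 FPKM in WT.

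Among the 13 Slco genes, 7 were tested and Slco4c1 was the gene with the lowest p. It encodes a basolateral carrier of digoxin, thyroid hormone and uraemic toxins. Slco4c1 (ENSMUSG00000040693, chr1:96816270-96872171) had 34.7, 41.9 and 40.3 CPM in the libraries labelled Lpar3-/- and 27.2, 31.7 and 32.5 CPM in WT. All 3 libraries labelled Lpar3-/- were above all 3 WT libraries, with WT replicate 1 the lowest. Means of 38.9 ± 3.78 CPM in the libraries labelled Lpar3-/- and 30.5 ± 2.85 CPM in WT (SD, n = 3 each) gave a log2 fold change of 0.35 (SE 0.10, 95% interval 0.14 to 0.57, unadjusted p = 0.0037, edgeR adjusted p = 0.213), which was 0.28 to 0.43 with any library left out (adjusted p 0.222 to 0.67). None of the 50-base stretches of its transcript occurs in a transcript of another gene.

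Slco1a6, a kidney member of the Slco1a row on chromosome 6, was the most abundant Slco gene. It had 219, 211 and 219.6 CPM in the libraries labelled Lpar3-/- and 197, 243 and 184 CPM in WT, values of WT that lay on both sides of the other group (log2 fold change 0.06, 95% interval -0.15 to 0.27, edgeR adjusted p = 0.911, and -0.02 without WT replicate 3). Slco3a1, which encodes a carrier of prostaglandins and thyroxine, had 187, 176 and 163 CPM in the libraries labelled Lpar3-/- and 156, 166 and 168 CPM in WT (log2 fold change 0.10, 95% interval -0.06 to 0.26). Slco4a1, a thyroid hormone carrier gene, had a log2 fold change of 0.27 (95% interval -0.10 to 0.65), and Slco2b1, a gene for a carrier of steroid sulfates, one of -0.33 (95% interval -0.70 to 0.05). In Slco2b1, WT replicate 2 was the highest library at 29.2 CPM, against 14.6 to 20.3 CPM in the libraries labelled Lpar3-/- and 18.2 and 21.1 CPM in the other WT libraries, and without it the log2 fold change was -0.11 (edgeR adjusted p = 0.882). Slco2a1, which encodes the prostaglandin transporter, averaged 32.2 ± 1.61 CPM in the libraries labelled Lpar3-/- and 32.3 ± 6.77 CPM in WT.

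Several Slco genes known from other organs were at or near 0. Slco1b2, the liver carrier of bile acids, had at most 1 count in a library, and Slco1c1, the thyroxine carrier of brain vessels, had 6 counts in WT replicate 2 and 0 in the other 5 libraries. Slco1a5, Slco5a1, Slco6c1 and Slco6d1 had 0 counts in each library. A count of 0 allows up to 3 counts, or 0.171 to 0.189 CPM in the libraries labelled Lpar3-/- and 0.169 to 0.181 CPM in WT, which covers counting error only.

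The Abcc genes encode ATP-driven pumps, and some encode regulators of potassium channels. Of 10 genes, 8 were tested, and all 8 had a positive log2 fold change, from 0.02 to 0.17 with a median of 0.10, where 7445 of all 15225 genes had a positive one. The 8 genes share the same 6 libraries, 0 had an unadjusted p below 0.05 (edgeR; DESeq2 and limma-voom also called 0) and every 95% interval included 0. Abcc2, which encodes MRP2, an apical pump for conjugated anions, had 133, 136 and 131.02 CPM in the libraries labelled Lpar3-/- and 131.00, 128.04 and 127.7 CPM in WT. The groups did not overlap, by a margin far smaller than the spread within either, and the 95% interval of its log2 fold change of 0.05 was -0.08 to 0.19. Abcc4, which encodes MRP4, an apical pump for urate and cyclic nucleotides, had 59.4, 61.0 and 68.7 CPM in the libraries labelled Lpar3-/- and 59.5, 58.1 and 56.1 CPM in WT (log2 fold change 0.12, 95% interval -0.04 to 0.29, edgeR adjusted p = 0.695).

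Abcc9, which encodes a sulfonylurea receptor of vascular potassium channels, barely escaped overlap in CPM, with 22.9, 23.5 and 21.85 CPM in the libraries labelled Lpar3-/- and 20.9, 21.83 and 21.05 CPM in WT. In FPKM the groups did overlap, at 2.586 in Lpar3-/- replicate 3 and 2.592 in WT replicate 2. The log2 fold change of Abcc9 was 0.10 (95% interval -0.10 to 0.29). Abcc1, a basolateral pump gene, had a log2 fold change of 0.15 (95% interval -0.11 to 0.41), and Abcc5, a gene for a pump of cyclic nucleotides, one of 0.02 (95% interval -0.23 to 0.28) that was -0.09 without WT replicate 1 and -0.02 without WT replicate 2. Abcc3, Abcc6 and Abcc10 had 1.13, 2.01 and 2.61 FPKM over all libraries. The pancreatic channel regulator gene Abcc8 had 1 to 10 counts in each library and Abcc12 at most 1.

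**Figure D4:**
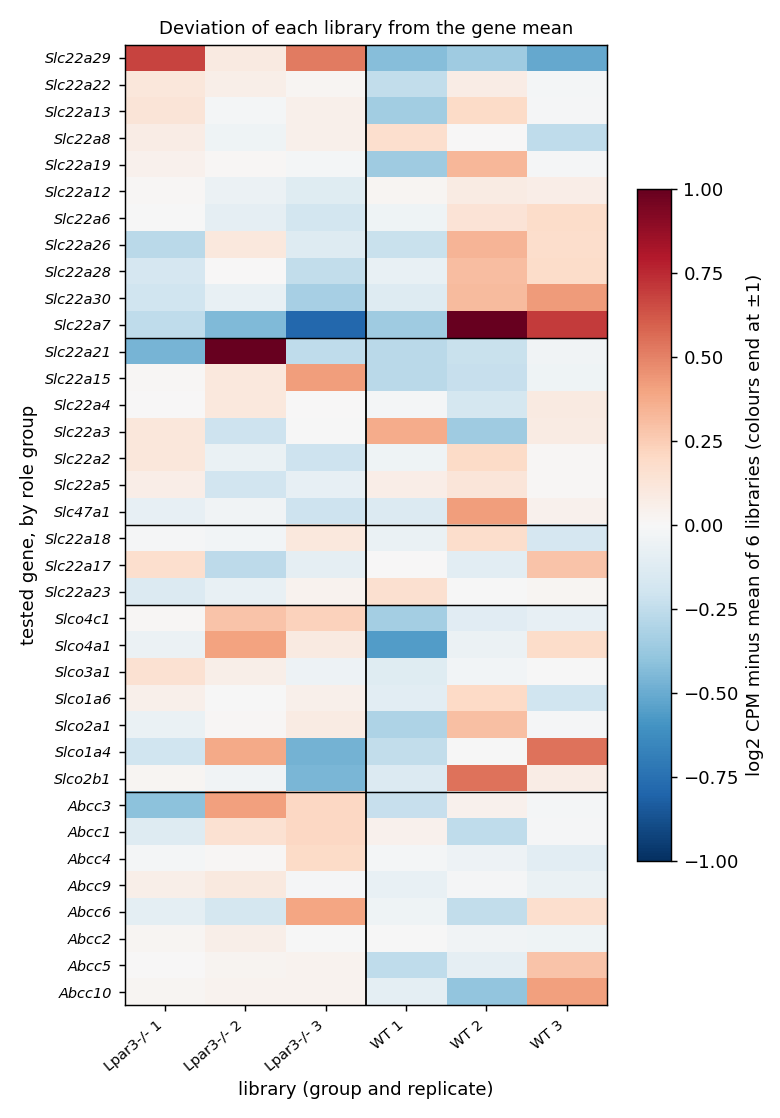
Difference of each library from the mean of the 6 libraries, as log2 CPM, for 36 tested transporter genes in rows and the libraries in columns, with those labelled Lpar3-/- left of the line and WT right of it. Red is above and blue below the mean, colours end at 1 and -1, and WT replicate 1 is blue for many genes in which WT replicate 2 is red, among them Slc22a7, Slc22a30 and Slc22a19.

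The WT libraries differed among themselves in these genes, and replicate 1 stood low. WT replicate 1 was below all 3 libraries labelled Lpar3-/- in 17 of the 37 genes (45.9%) and above all of them in 4 (10.8%), where the shares over all genes tested were 26.2% and 26.9%. WT replicate 2 was above all libraries labelled Lpar3-/- in 15 genes (40.5%, against 30.9% of all genes) and below them in 13 (35.1%, against 4561 of all 15225 genes). WT replicate 2 held the highest value of the 6 libraries in 13 genes (35.1%, against 21.9% of all genes). The median coefficient of variation over the 37 genes was 7.92% in the libraries labelled Lpar3-/- and 12.6% in WT, where over all genes it was 8.08% in the libraries labelled Lpar3-/- and 10.4% in WT. It reached 46.5% in WT for Slc22a7. These genes share libraries and are not replicates of one another, so the shares describe these 6 libraries and were not tested.

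Other genes of the same transport routes were taken from a list of 37, of which 33 were tested. The edgeR test called 0 of them, with 3 higher and 6 lower at an unadjusted p below 0.05, a share of 27.3% (all genes 9.18%). The list was chosen with earlier results of these data known, so this share describes the listed genes only and was not tested. DESeq2 called 3 of them (176 of all genes) and limma-voom 1 (55 of all genes). The 3 called by DESeq2 belong to apical exit routes. Slc17a1, which encodes an apical carrier of urate and other organic anions, had 338, 364 and 329 CPM in the libraries labelled Lpar3-/- and 437, 496 and 438 CPM in WT, without overlap (log2 fold change -0.41, SE 0.08, adjusted p = 0.0525 by edgeR, 0.000123 by DESeq2 and 0.0451 by limma-voom). Slc17a3, its neighbour on chromosome 13 with a like role, had 248, 246 and 216 CPM in the libraries labelled Lpar3-/- and 280, 377 and 369 CPM in WT, also without overlap (log2 fold change -0.53, SE 0.11, adjusted p = 0.0682 by edgeR and 0.000209 by DESeq2). Abcb1b, a P-glycoprotein pump gene for hydrophobic drugs, was higher in value, with 39.9, 38.7 and 45.4 CPM in the libraries labelled Lpar3-/- and 34.0, 21.4 and 18.4 CPM in WT (log2 fold change 0.74, SE 0.18, adjusted p = 0.122 by edgeR and 0.00208 by DESeq2). Without WT replicate 1 all of these 3 genes passed the edgeR test (adjusted p = 0.0338, 0.00418 and 0.00173).

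The other listed genes gave smaller differences. Ppara, the nuclear receptor that drives fatty acid oxidation, had 83.4 ± 5.47 CPM in the libraries labelled Lpar3-/- and 101 ± 6.18 CPM in WT (log2 fold change -0.28, edgeR adjusted p = 0.206). Slc44a4, Slc51a and Slc16a10 had log2 fold changes of -0.21, -0.32 and -0.15, and Slc51b and Slc9a3r2 of 0.25 and 0.21, all with edgeR adjusted p from 0.329 to 0.54. Hnf4a, which encodes a factor that drives many of these carriers, had 939 ± 41.1 CPM in the libraries labelled Lpar3-/- and 967 ± 74.1 CPM in WT. Slc13a3, which supplies the dicarboxylates that OAT1 and OAT3 exchange, had 699 ± 7.75 CPM in the libraries labelled Lpar3-/- and 647 ± 86.0 CPM in WT (SD, n = 3 each, log2 fold change 0.11, edgeR adjusted p = 0.797).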

How the data were processed

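The deposited table holds raw read counts per gene, whole numbers that the authors did not normalize, with 1 column per library. The authors also deposited FPKM, which equalled counts per gene length scaled by 1 factor per library (largest relative deviation 4.11e-08 for genes with at least 20 counts). HISAT2 2.0.5, featureCounts 1.5.0-p3, DESeq2 1.20.0 and GRCm38 are named in the submitters' processing notes; the sources used here state neither strand setting, annotation release nor the handling of reads that match several genes. Poly-A RNA was captured and primed with random hexamers, per the labels' protocols. The 377 rows with no gene name (0.259% to 0.362% of counts) were left out.

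All 6 libraries were fitted with edgeR 4.0.16 in R 4.3.3 (quasi-likelihood F-test, two-sided, default filter, TMM, no covariate, Benjamini-Hochberg over 15225 genes, called below 0.05). SE came from the fold change and F. CPM uses TMM-scaled totals. Alternatives were DESeq2 1.42.0, limma-voom (limma 3.58.1), other normalizations and filters, a replicate block, each library left out, and limma on logged FPKM (log2, pseudocount 1 or 0.1). Fits were tested on simulated data. The members and lists were chosen with earlier results of these data known. Named genes were, in each role group, the 3 with the lowest p and the 3 most abundant, and all with unadjusted p below 0.05; Slc22a21 and others named outside this were chosen after their values were seen. Exon overlap and shared 50-base stretches came from GENCODE vM21 (GRCm38), in which 47 of 50 genes had the deposited coordinates. Stretches were matched on both strands. The gene named as sharing most often was counted over all its transcripts. Alignments came from Biopython 1.88. Values of 1 tested transporter gene and 1 companion gene are not reported here, though both stay in the fits and counts.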

Additional observations from a re-analysis of the deposited data

How the results depend on the processing

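Of the 50 transporter genes, 13 had too few counts to test, and the median half-width of the 95% interval over the 37 tested genes was 0.26 on the log2 scale. Differences smaller than that were mostly not detectable even before adjustment. After adjustment the limit was higher, and the log2 fold change of -1.09 of Slc22a7 was not called (edgeR adjusted p = 0.158). The count of called transporter genes was 0 under every alternative but 2. Without WT replicate 1 it was 2 (range over the 6 fits with a library left out 0 to 2), and with no filter on low counts it was 3 (Slc22a7, Slc22a30 and Slco4c1), where the companion genes gave 4 and all genes 520. That unfiltered edgeR fit used a median of 107000 degrees of freedom in place of 11.8. Among companion genes, with 0 called in the reported fit, DESeq2 called 3, limma-voom 1 and the replicate block 1, and the range with a library left out was 0 to 3. Over all genes, with 57 called in the reported fit, DESeq2 called 176, limma on log2(FPKM + 1) called 9, or 4 with no filter, limma on log2(FPKM + 0.1) called 13, and the range with a library left out was 12 to 149. The cause of these differences was not tested.

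The replicate numbers gave no clear pairing of the libraries. Deviations from the group means of same-numbered libraries correlated at 0.003, 0.005 and 0.051 over genes, all close to 0. Number 1 of the libraries labelled Lpar3-/- correlated best with WT number 2 (0.04), while numbers 2 and 3 correlated best with the same WT number. A fit with the replicate block called 80 genes in all, 0 transporter genes and 1 companion gene (Slc17a1, edgeR adjusted p = 0.0332). Of 384 log2 fold changes of the 24 genes taken by the naming rule under the alternatives, 372 kept their direction and side of the threshold, 5 passed the threshold (Slc22a7 and Slc22a30 in the unfiltered fit and without WT replicate 1, Slco4c1 in the unfiltered fit), and 7 turned in sign, all in fits with a library left out. Those were Slc22a18 without Lpar3-/- replicate 3 (-0.00848) and without WT replicate 3 (range over the 6 fits -0.0385 to 0.136), Abcc5 without WT replicate 1 (-0.0875) and 2 (-0.0159; range -0.0875 to 0.193), and, without WT replicate 3, Slc22a8 (range -0.0585 to 0.148), Slc22a17 (range -0.238 to 0.0084) and Slco1a6 (range -0.017 to 0.187).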
